A study of Homo sapiens with 16 samples.

Results

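Polycomb repressive complex 2 (PRC2) is known for holding genes of embryonic development in check, and 51 transcription factors classically counted among its targets were followed in 2 neuroblastoma cell lines. The 51 are homeobox, T-box, forkhead, GATA, basic helix-loop-helix, SOX, zinc finger and related regulators outside the HOX clusters. They were taken from the count table by a list of gene symbols, and all 51 were found among its 25728 symbols. No binding of PRC2 was measured in these samples, so the name of the group rests on what is known of the genes and not on these data.

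PRC2 places methyl groups on lysine 27 of histone H3 through its catalytic subunit EZH2 or the related EZH1. Its classical targets have CpG-rich promoters and are active in particular lineages, such as limb, heart, neural crest or parts of the brain. Neuroblastoma arises from the sympathetic branch of the neural crest, where HAND1 is among the factors normally expressed.

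RNA was sequenced from Kelly and LAN-1 cells, both established human neuroblastoma lines with amplified MYCN. Each line received GSK126, an inhibitor of EZH2 activity, at 2 uM, or DMSO as the control, and was collected after 2 or 5 days. This gave 8 groups of 2 libraries: Kelly with DMSO at day 2, Kelly with DMSO at day 5, Kelly with GSK126 at day 2, Kelly with GSK126 at day 5, and the same 4 in LAN-1. The labels name no genetic change added to either line, and they do not say whether duplicates came from separate cultures, so p-values measure only the spread between these samples, which may be technical. Library totals ran from 912095 to 1666190 counts. All 12 markers of the adrenergic neuroblast, GATA3 among them, had reads in every group of both lines. Of the markers of other cell types, S100B and FABP7 (glia), CD3E (T cells) and KRT5, KRT14 and CDH1 (epithelium) had no read in any of the 16 libraries.

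The sequences before the start of 6 of the genes show the kind of promoter at issue. Of the 51 genes, 37 had a promoter in the RefSeq table for GRCh38.p14, which holds 250 bases before to 50 bases after the start. Shown are the 250 bases before the start of PRRX1, MSX2 and FOXC1, which rose in Kelly with GSK126, of TBX20, which rose in LAN-1, of ZIC1, which was read in LAN-1 and had no read in Kelly, and of OTX2, which had no read in any library. Each is written 5′ to 3′ on the strand of its gene, with every CG dinucleotide in capitals.
PRRX1, chr1:170663881-170664130, plus strand: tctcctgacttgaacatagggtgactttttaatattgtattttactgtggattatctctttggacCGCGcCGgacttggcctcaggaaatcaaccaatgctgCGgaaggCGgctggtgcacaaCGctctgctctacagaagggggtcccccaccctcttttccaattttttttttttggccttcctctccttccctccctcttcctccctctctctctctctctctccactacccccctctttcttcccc
MSX2, chr5:174724332-174724581, plus strand: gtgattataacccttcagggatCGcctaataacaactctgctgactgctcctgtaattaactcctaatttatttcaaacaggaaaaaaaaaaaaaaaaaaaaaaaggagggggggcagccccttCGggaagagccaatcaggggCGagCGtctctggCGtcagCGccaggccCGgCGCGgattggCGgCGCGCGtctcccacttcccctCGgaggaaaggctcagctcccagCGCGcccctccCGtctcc
FOXC1, chr6:1609665-1609914, plus strand: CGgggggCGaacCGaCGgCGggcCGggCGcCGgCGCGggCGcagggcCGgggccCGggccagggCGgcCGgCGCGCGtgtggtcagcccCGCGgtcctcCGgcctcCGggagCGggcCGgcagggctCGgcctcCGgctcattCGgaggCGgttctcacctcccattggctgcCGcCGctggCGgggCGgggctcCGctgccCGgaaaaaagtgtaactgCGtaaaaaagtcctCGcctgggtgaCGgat
TBX20, chr7:35254101-35254350, minus strand: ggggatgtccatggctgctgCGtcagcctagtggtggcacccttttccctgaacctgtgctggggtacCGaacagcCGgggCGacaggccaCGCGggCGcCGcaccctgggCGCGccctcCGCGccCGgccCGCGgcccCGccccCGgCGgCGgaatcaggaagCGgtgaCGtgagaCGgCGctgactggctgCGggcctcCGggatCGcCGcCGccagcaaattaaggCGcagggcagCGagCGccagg
ZIC1, chr3:147409115-147409364, plus strand: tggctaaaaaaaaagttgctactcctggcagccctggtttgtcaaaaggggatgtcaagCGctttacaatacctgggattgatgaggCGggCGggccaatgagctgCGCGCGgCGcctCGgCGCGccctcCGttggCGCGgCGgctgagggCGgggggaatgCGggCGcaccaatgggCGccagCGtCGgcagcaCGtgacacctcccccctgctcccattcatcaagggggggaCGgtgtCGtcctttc
OTX2, chr14:56810480-56810729, minus strand: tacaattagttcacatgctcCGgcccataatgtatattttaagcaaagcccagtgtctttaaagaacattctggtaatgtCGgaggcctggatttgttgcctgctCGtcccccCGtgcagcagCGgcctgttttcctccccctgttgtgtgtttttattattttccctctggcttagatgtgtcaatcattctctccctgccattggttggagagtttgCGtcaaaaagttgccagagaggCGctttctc
In this stretch FOXC1 held 37 CG dinucleotides and TBX20 held 31, against 6 in PRRX1 and 7 in OTX2. ZIC1 held 23 and MSX2 held 17. A gene that rose (PRRX1) and a gene without reads (OTX2) thus stood side by side at the low end of the 6.

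Over the full window of 300 bases, 33 of the 37 promoters (89.2%) were CpG-rich, meaning a ratio of observed to expected CG dinucleotides over 0.6 and a GC content over 50%. The same held for 46.8% of the 35116 promoters in the table. The median ratio was 0.811 in the 37 and 0.579 in all promoters. Among the 37, the median was 0.794 in the 6 genes that rose in some GSK126 comparison, 0.875 in the 11 that were silent in both lines and 0.799 in the other 20. The ranges of these classes overlapped, and no test was made, because the classes were set from the expression values. The letters TATAAA, searched on both strands, were found in 2 of the 37 (GSC and TFAP2A, 5.4%) and in 11.5% of all promoters.

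**Figure D1:**
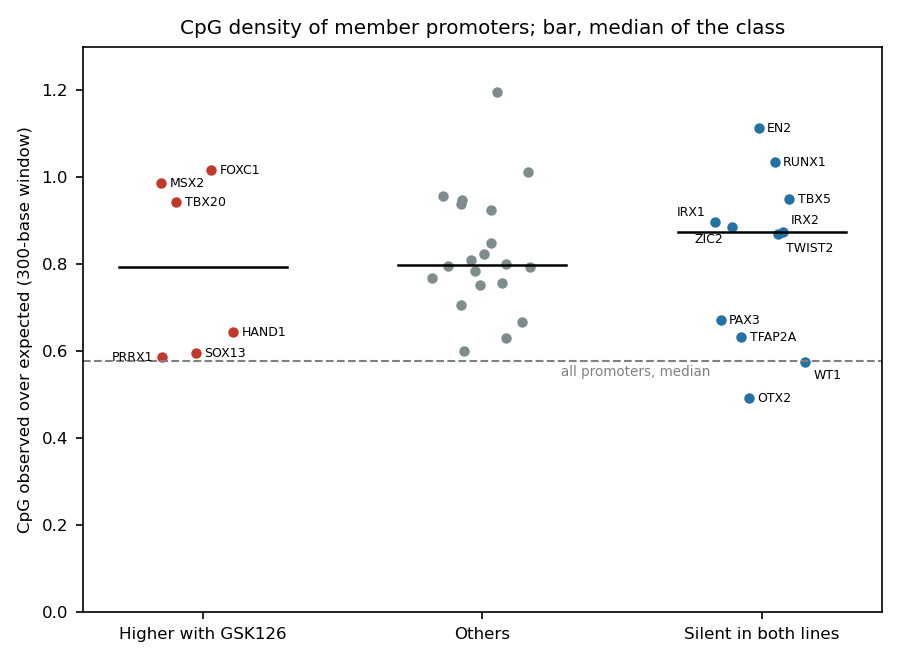
CpG density of the 37 promoters found in RefSeq. Each point is the ratio of observed to expected CG in the 300-base window of 1 gene (vertical axis), the horizontal axis gives the class by expression, bars are class medians (0.794, 0.799 and 0.875 from left to right) and the dashed line is the median of all 35116 promoters (0.579). The classes overlap, with PRRX1 close to the dashed line and OTX2 below it.

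The first comparison asks which of the 51 genes were read at all, and which stayed silent with GSK126. A gene was called silent in a group where its 2 libraries together held 3 counts or fewer. For a gene with no read, 3 counts is also what a count of 0 still allows. Over a group, 3 counts stood for 0.931 to 1.28 CPM (the count per 1e6 counts of the library total, scaled by TMM). Limits and intervals of this kind cover counting error only.

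In all 16 libraries, 8 of the 51 had no read: BARX2, FOXC2, FOXF1, FOXL1, IRX1, OTX2, PAX3 and TWIST2. Of all 25728 symbols, 6598 had no read. OTX2 patterns the forebrain and midbrain, PAX3 acts in the dorsal neural tube and the neural crest, FOXF1 and FOXC2 act in mesoderm and vessels, and TWIST2 acts in mesenchyme. A further 7, EN2, TBX5, IRX2, WT1, ZIC2, RUNX1 and TFAP2A, were silent in all 8 groups, with at most 6 counts summed over the 16 libraries. So 15 of the 51 were silent in both lines with DMSO and with GSK126, at both days.

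In Kelly, 28 of the 51 were silent in both DMSO groups, and 24 of these stayed silent in both GSK126 groups. The 24 are the 15 above and EN1, BARX1, TBX15, FOXF2, GSC, LHX2, NKX2-5, PITX1 and ZIC1. EN1, BARX1, TBX15, FOXF2, NKX2-5 and ZIC1 had no read in any of the 8 Kelly libraries. The 4 that passed 3 counts in a GSK126 group of Kelly were LMX1B (20 counts at day 5), FOXL2 (6), GATA4 (5) and MSX1 (4). LMX1B was clear of the limit, and the other 3 lay just above it.

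In LAN-1, 21 of the 51 were silent in both DMSO groups, and 17 of these stayed silent with GSK126. The 17 are the 15 above together with GATA6, a regulator of endoderm and heart, and LMX1B, a regulator of dorsal limb and midbrain neurons, neither of which had a read in any LAN-1 library. The 4 that passed 3 counts in a GSK126 group of LAN-1 were SOX13 (9 counts at each day), FOXF2 (5), TBX15 (4) and LHX9 (4). GSC, a gene of the organizer of the early embryo, held 7 counts in LAN-1 with DMSO at day 2, 2 with DMSO at day 5 and 3 in each GSK126 group, so that it passed the limit in DMSO at day 2 only.

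The number of genes above 3 counts was 21, 23, 24 and 27 in Kelly with DMSO at day 2, DMSO at day 5, GSK126 at day 2 and GSK126 at day 5. It was 29, 26, 32 and 31 in the same groups of LAN-1. At each day in each line the number was higher with GSK126 than with DMSO. The same number over all genes was not computed, so the rise is not shown to be particular to these genes. Of the 89 related regulators described below, 50, 46, 40 and 39 had no read in these groups of Kelly, in the same order. In LAN-1, 46, 41, 39 and 41 had none. At day 5 the GSK126 groups had fewer counts in total than the DMSO groups (2483742 against 3001412 in Kelly, 2365824 against 2675844 in LAN-1), and at day 2 the Kelly GSK126 group had more (3157749 against 2741429). With no read allowed at all, 17 genes in Kelly and 14 in LAN-1 were silent in both GSK126 groups, and with up to 10 counts allowed, 29 and 25 were.

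**Figure D2:**
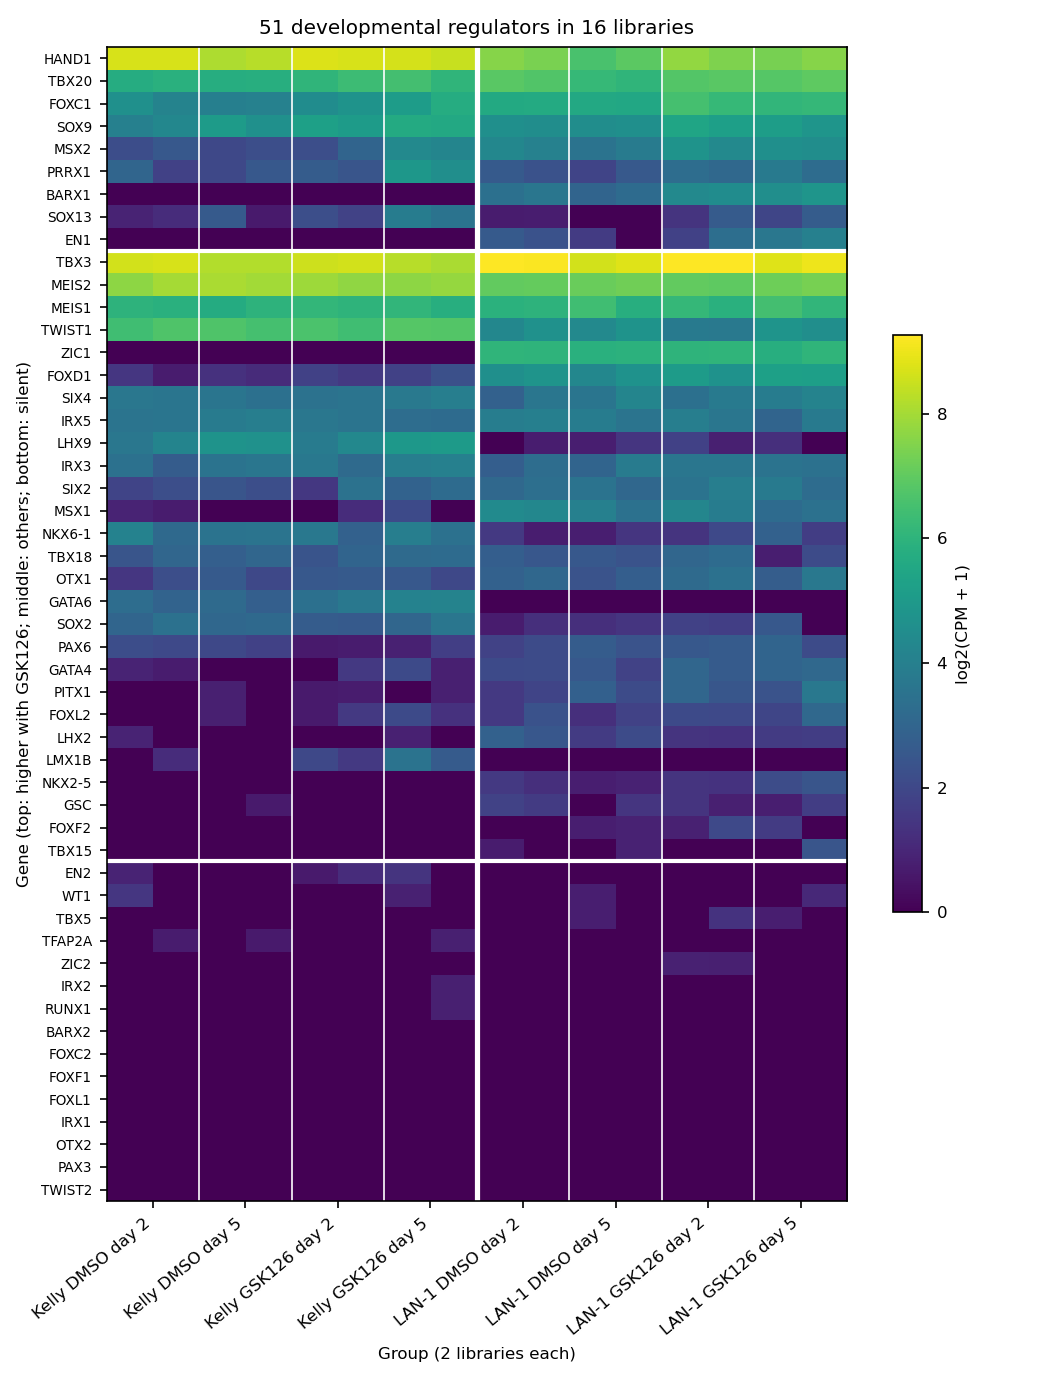
Level of each of the 51 genes (rows) in each of the 16 libraries (columns, 2 per group, in the order DMSO day 2, DMSO day 5, GSK126 day 2, GSK126 day 5 for Kelly and then for LAN-1), coloured by log2(CPM + 1). The top block holds the 9 genes that rose with GSK126 in some comparison and the bottom block the 15 that were silent in both lines. BARX1, EN1 and ZIC1 are at 0 in every Kelly library.

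Some genes that were silent in one or both lines lie next to genes that were read. On GRCh37, TBX5 lies 261.8 kb from TBX3 on chromosome 12, and the pair held 4 and 9499 counts over the 16 libraries. FOXF2, silent in Kelly and above the limit in LAN-1 with GSK126 at day 2 only, lies 214.3 kb from FOXC1 on chromosome 6, with 10 and 924 counts. On chromosome 16, FOXF1, FOXC2 and FOXL1 lie within 60.9 kb of each other and none had a read, while IRX3 and IRX5, 644.1 kb apart on the same chromosome, held 225 and 262 counts. IRX1 and IRX2 on chromosome 5 held 0 and 1.

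Most reads from the 51 genes came from a few of them. The 5 with most reads made up 81.4% of the summed CPM in Kelly (HAND1, TBX3, MEIS2, TWIST1 and TBX20) and 73.8% in LAN-1 (TBX3, HAND1, MEIS2, TBX20 and MEIS1). CPM is not scaled by transcript length, so these shares count reads and do not rank the genes by number of transcripts. HAND1, TBX3 and TBX20 are described below with the comparisons that they passed.

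The TALE homeobox genes MEIS1 and MEIS2, whose proteins act as partners of other homeodomain factors, passed the threshold in none of the 4 GSK126 comparisons. MEIS2 held 203 and 258 CPM in Kelly with DMSO at day 2, 268 and 247 with DMSO at day 5, 235 and 212 with GSK126 at day 2, and 203 and 221 with GSK126 at day 5. LAN-1 libraries held, group by group in this order, 129 and 133, 141 and 151, 128 and 123, and 149 and 163 CPM. In Kelly at day 5 both GSK126 libraries lay below both DMSO libraries, with a log2 change of -0.27 and an adjusted p of 0.143. Here and below, unless another tool is named, an adjusted p comes from edgeR's quasi-likelihood test with Benjamini-Hochberg adjustment over the 11863 genes tested, and a gene is called where it is under 0.05. With an offset for GC content, MEIS2 had a change of -0.285 and an adjusted p of 0.0453.

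MEIS1 held 62.6 and 57.2 CPM in Kelly with DMSO at day 2, 51.3 and 62.9 with DMSO at day 5, 68.7 and 63.4 with GSK126 at day 2, and 66.7 and 54.6 with GSK126 at day 5. In the same groups of LAN-1 the levels were 59.2 and 61.5, 83.8 and 55.2, 71.4 and 56.9, and 89.0 and 66.8 CPM. The GSK126 libraries overlapped the DMSO libraries in LAN-1 at both days and in Kelly at day 5.

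The lines differed in which of these genes they expressed in DMSO. Of the 51, 28 had enough counts to be tested (edgeR's filterByExpr at a minimum count of 10) and 23 did not. A gene can pass this filter through the group where it is high, so counts over the 28 do not stand for all 51. LAN-1 and Kelly in DMSO, over both days, differed in 20 of the 28, with 12 higher and 8 lower in LAN-1. Of all 11863 genes, 67.7% were called in this comparison, 33.5% higher and 34.2% lower, so that a difference between the lines was common to most genes.

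ZIC1, a zinc finger gene of dorsal neural tissue, had no read in any Kelly library. In LAN-1 it held 65.6 and 64.2 CPM with DMSO at day 2, 57.5 and 60.2 with DMSO at day 5, 63.3 and 66.1 with GSK126 at day 2, and 54.9 and 65.7 with GSK126 at day 5. With 353 counts in the LAN-1 DMSO libraries, ZIC1 was 119-fold higher there than a floor of 3 counts over the 4 Kelly DMSO libraries (adjusted p = 9.00e-40). Its exons overlap those of ZIC4 on the opposite strand, and as the strand setting of the counting is not given in the sources used here, reads of the pair cannot be told apart. The GSK126 and DMSO libraries of LAN-1 overlapped at both days.

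FOXD1, a forkhead gene of kidney stroma and retina, held 0.615 to 3.79 CPM in Kelly. In LAN-1 it held 23.6 and 26.4 CPM with DMSO at day 2, 18.7 and 25.1 with DMSO at day 5, 32.5 and 25.4 with GSK126 at day 2, and 36.9 and 36.1 with GSK126 at day 5. Every LAN-1 library lay above every Kelly library, and in DMSO the log2 difference was 4.17 ± 0.36 (SE, adjusted p = 4.75e-20). At day 5 both LAN-1 GSK126 libraries of FOXD1 lay above both DMSO libraries, at a log2 change of 0.76 and an adjusted p of 0.0817. FOXD1 shares exons with FOXD1-AS1.

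MSX1, a homeobox gene of limb, tooth and neural crest, held 0.894 and 0.615 CPM in Kelly with DMSO at day 2, none with DMSO at day 5, 0 and 1.27 with GSK126 at day 2, and 3.25 and 0 with GSK126 at day 5. The same groups of LAN-1 held 20.4 and 18.2, 15.2 and 10.0, 17.9 and 13.8, and 8.35 and 9.86 CPM. All LAN-1 libraries lay above all Kelly libraries. The DMSO libraries held 93 counts in LAN-1 and 2 in Kelly, a ratio of 46.9 after scaling (exact 95% counting interval 12.6 to 393; adjusted p = 7.80e-16).

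FOXC1, described below, was the fourth of the most clearly higher genes, at a log2 difference of 1.44 ± 0.17 (SE, adjusted p = 6.58e-13). The other 8 genes called higher in LAN-1 were TBX3, BARX1, MSX2, TBX20, EN1, GATA4, PITX1 and SIX2. EN1 and BARX1 had no read in Kelly and were 5.72-fold and 17.5-fold higher in LAN-1 than a floor of 3 counts over the Kelly DMSO libraries.

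LHX9, a LIM homeobox gene of gonad and brain, held 11.6 and 17.2 CPM in Kelly with DMSO at day 2, 26.0 and 24.8 with DMSO at day 5, 13.4 and 19.0 with GSK126 at day 2, and 29.3 and 31.8 with GSK126 at day 5. In LAN-1 it held 0 to 2.43 CPM. It was lower in LAN-1 in DMSO by a log2 difference of -4.77 ± 0.45 (SE, adjusted p = 4.55e-18).

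TWIST1, a basic helix-loop-helix gene of mesenchyme and neural crest, held 84.0 and 105 CPM in Kelly with DMSO at day 2, 104 and 90.7 with DMSO at day 5, 98.6 and 83.7 with GSK126 at day 2, and 112 and 109 with GSK126 at day 5. The LAN-1 levels, in the same order, were 18.5 and 24.3, 19.4 and 25.9, 13.0 and 12.3, and 26.4 and 23.0 CPM. Every LAN-1 library lay below every Kelly library (log2 difference in DMSO -2.14 ± 0.14 SE, adjusted p = 1.27e-28). At day 2 both LAN-1 GSK126 libraries of TWIST1 lay below both DMSO libraries, at a log2 change of -0.75 and an adjusted p of 0.691.

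HAND1 (-1.33 ± 0.08 SE, adjusted p = 1.32e-31) and MEIS2 (-0.82 ± 0.08, adjusted p = 7.34e-17) completed the 4 most clearly lower genes, on the log2 scale. The other 4 were GATA6, NKX6-1, SOX2 and SOX13. GATA6 had no read in LAN-1 and was 13.9-fold higher in Kelly than a floor of 3 counts over the LAN-1 DMSO libraries. EN1 and SOX13 were the only calls between the lines that were lost in some refit without a library or with another setting, and the other 18 were kept in every fit that tested them.

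GSK126 against DMSO at day 2 gave 1 call among the 28 tested genes in each line, and both were higher. In Kelly it was SOX9, where 0.177% of all genes were called, 0.169% higher and 0.00843% lower. In LAN-1 it was FOXC1, where 0.152% were called, all of them higher (0% lower). No gene of the 28 was called lower by edgeR or by DESeq2. At an unadjusted p under 0.05, 0 in Kelly and 1 in LAN-1 were lower. Genes below the filter on low counts are outside the 28, and these moved both ways. LHX2 in LAN-1 fell from 17 counts with DMSO to 4 with GSK126, a ratio of 0.283 (exact counting interval 0.0694 to 0.869). PAX6 in Kelly fell from 9 to 2. FOXF2 in LAN-1 rose from 0 to 5 and FOXL2 in Kelly from 0 to 4. None of these changes passed the threshold in a fit without the filter.

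By day 5, 6 of the 28 were called in Kelly (PRRX1, MSX2, FOXC1, SOX9, SOX13 and HAND1) and 5 in LAN-1 (EN1, BARX1, TBX20, HAND1 and SOX13). All were higher with GSK126. Of all genes, 4.9% were called in Kelly (3.3% higher and 1.6% lower) and 3.66% in LAN-1 (2.45% higher and 1.21% lower). HAND1 and SOX13 were called in both lines. None of the 28 was called lower by edgeR, nor by DESeq2 among the 28 in Kelly and 5 in LAN-1 to which it gave an adjusted p, with 1 in Kelly and 0 in LAN-1 lower at an unadjusted p under 0.05. The median log2 change over the 28 was 0.34 in Kelly and 0.51 in LAN-1 at day 5. At day 2 it was 0.14 and 0.40. Of the 28, EN1, BARX1 and ZIC1 had no read in Kelly and GATA6 had none in LAN-1. They enter the counts and medians of that line with a change of 0. In these comparisons the median over all genes lay between 0 and 0.01. The filter also counted GSK126 libraries, so a low gene that rose could enter the 28. EN1 and SOX13 held at most 5.09 and 5.2 CPM with DMSO, and up to 15.3 and 13.8 with GSK126. LHX2, at most 6.37 CPM with DMSO and lower with GSK126, stayed out. The medians and the lack of lower calls thus do not stand for genes below the filter. As the libraries are from bulk cultures, more cells expressing a gene and more RNA per cell cannot be told apart.

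PRRX1 had the largest fitted change of the genes called in Kelly. It is a homeobox gene of limb and craniofacial mesenchyme, at 170631869 to 170708562 on chromosome 1 (GRCh37). In Kelly it held 7.15 and 2.46 CPM with DMSO at day 2, 2.97 and 4.84 with DMSO at day 5, 5.48 and 4.44 with GSK126 at day 2, and 28.5 and 22.7 with GSK126 at day 5. LAN-1 libraries held, group by group in this order, 5.09 and 4.05, 2.77 and 5.02, 8.93 and 7.69, and 13.2 and 8.76 CPM. The Kelly day 5 GSK126 libraries stood far above the 6 other Kelly libraries, which overlapped one another. At day 5 the log2 change was 2.65 ± 0.40 in Kelly (SE, n = 2 per group, adjusted p = 3.22e-07). In LAN-1 the change was 1.57, with an adjusted p of 0.0686, or 0.0418 with an offset for GC content. Its promoter, printed above, is the CpG-poorest of the 6.

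MSX2, a homeobox gene of skull, limb and neural crest, at 174151585 to 174157899 on chromosome 5, had the same shape in Kelly. It held 3.58 and 4.92 CPM with DMSO at day 2, 2.97 and 3.63 with DMSO at day 5, 3.65 and 6.97 with GSK126 at day 2, and 19.5 and 17.4 with GSK126 at day 5. In the same groups of LAN-1 the levels were 18.5 and 15.5, 10.4 and 13.4, 26.0 and 19.2, and 23.6 and 21.9 CPM. With GSK126 for 5 days, Kelly reached a level within the range of the LAN-1 libraries. The log2 change at day 5 was 2.44 ± 0.44 in Kelly (SE, n = 2 per group, adjusted p = 1.93e-05) and 0.96 in LAN-1 (adjusted p = 0.0837), and the difference between the lines was -1.48 ± 0.58 (adjusted p = 0.205).

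FOXC1, a forkhead gene of mesenchyme, eye and vessels, lies at 1610150 to 1614132 on chromosome 6. In Kelly it held 24.1 and 16.6 CPM with DMSO at day 2, 14.9 and 15.7 with DMSO at day 5, 21.9 and 26.0 with GSK126 at day 2, and 33.4 and 52.3 with GSK126 at day 5. The same groups of LAN-1 held 47.8 and 49.3, 46.4 and 46.0, 90.1 and 73.1, and 67.5 and 70.1 CPM. In LAN-1 the GSK126 libraries lay above the DMSO libraries at both days, and in Kelly at day 5.

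FOXC1 changed by 1.49 ± 0.26 on the log2 scale in Kelly at day 5 (SE, n = 2 per group, adjusted p = 7.61e-06). In LAN-1 the change was 0.75 ± 0.18 at day 2 (adjusted p = 0.0294) and 0.57 at day 5 (adjusted p = 0.0803). The LAN-1 call was lost without DMSO day 2 replicate 1 (adjusted p = 0.41) or 2 (0.252) or GSK126 day 2 replicate 1 (0.925), and under DESeq2 (adjusted p = 1). The difference between the lines at day 5, LAN-1 minus Kelly, was -0.92 (adjusted p = 0.141), a difference that passed the threshold with an offset for GC content (adjusted p = 0.0486) and without Kelly GSK126 day 5 replicate 1 (0.0466). PRRX1, MSX2 and FOXC1 in Kelly at day 5 and TBX20 in LAN-1 at day 5 were the calls with GSK126 that held without each of the 16 libraries in turn.

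Of the 3 SOX genes among the 51, SOX9 and SOX13 were called and SOX2 was not. SOX9, a gene of cartilage and neural crest stem cells at 70117161 to 70122557 on chromosome 17, held 15.2 and 18.5 CPM in Kelly with DMSO at day 2, 32.7 and 24.2 with DMSO at day 5, 37.7 and 33.0 with GSK126 at day 2, and 48.8 and 47.0 with GSK126 at day 5. The LAN-1 levels, in the same order, were 23.6 and 22.3, 22.2 and 23.4, 42.2 and 36.1, and 34.1 and 27.4 CPM. The GSK126 libraries lay above the DMSO libraries at both days in both lines.

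SOX9 changed in Kelly by 1.05 ± 0.25 at day 2 (adjusted p = 0.0435) and 0.77 ± 0.22 at day 5 (adjusted p = 0.0166; log2, SE, n = 2 per group). In LAN-1 the changes were 0.77 (adjusted p = 0.292) and 0.46 (adjusted p = 0.363). The day 2 call was lost without any 1 of the 4 Kelly day 2 libraries (adjusted p from 0.139 to 0.443), without 4 of the LAN-1 libraries (DMSO day 5 and GSK126 day 2, adjusted p from 0.0554 to 0.0618), with the replicate block (0.0578), in a fit of Kelly alone (0.0539) and under DESeq2 (0.887). The day 5 call was lost without Kelly DMSO day 5 replicate 2 (0.397) or GSK126 day 5 replicate 1 (0.122) or 2 (0.103), and under DESeq2 (adjusted p = 0.284).

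SOX13, a SOX gene of lymphoid and neural development at 204042243 to 204096871 on chromosome 1, held 0.894 and 1.23 CPM in Kelly with DMSO at day 2, 5.2 and 0.605 with DMSO at day 5, 3.65 and 2.54 with GSK126 at day 2, and 13.8 and 10.6 with GSK126 at day 5. LAN-1 libraries held, group by group in this order, 0.637 and 0.676, none, 1.62 and 5.38, and 2.78 and 5.48 CPM. The GSK126 libraries lay above the DMSO libraries at day 5 in both lines, on 31 against 8 counts in Kelly and 9 against 0 in LAN-1.

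For SOX13 in Kelly at day 5 the ratio was 4.56 (exact 95% counting interval 2.05 to 11.5, adjusted p = 0.00985). In LAN-1 the level with GSK126 was 3.37-fold higher than a floor of 3 counts over the DMSO group (adjusted p = 0.0386). The exact 95% lower limit of the ratio was 2.22. The Kelly call was lost without DMSO day 5 replicate 2 (0.455) or GSK126 day 5 replicate 1 (0.143) and under DESeq2 (adjusted p = 0.392). The LAN-1 call was lost without DMSO day 5 replicate 1 (0.284) or 2 (0.201) or GSK126 day 5 replicate 2 (0.238), and with an offset for GC content (0.0509).

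EN1 and BARX1 rose in LAN-1 and had no read in Kelly with or without GSK126. EN1, a homeobox gene of the midbrain-hindbrain boundary and the ventral limb, at 119599747 to 119605224 on chromosome 2, held 5.09 and 4.05 CPM in LAN-1 with DMSO at day 2, 2.08 and 0 with DMSO at day 5, 2.43 and 9.23 with GSK126 at day 2, and 11.8 and 15.3 with GSK126 at day 5. Both day 5 GSK126 libraries lay above the 6 others. At day 5 the counts were 31 with GSK126 and 3 with DMSO, a ratio of 11.6 (exact 95% counting interval 3.62 to 59.3, adjusted p = 8.74e-04). Without DMSO day 5 replicate 2, the library with no EN1 read, the adjusted p was 0.0764.

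BARX1, a homeobox gene of stomach, tooth and craniofacial mesenchyme, lies at 96713909 to 96717637 on chromosome 9. In LAN-1 it held 9.55 and 11.5 CPM with DMSO at day 2, 6.93 and 8.36 with DMSO at day 5, 19.5 and 21.5 with GSK126 at day 2, and 23.0 and 27.4 with GSK126 at day 5. All 4 GSK126 libraries lay above all 4 DMSO libraries. The log2 change was 0.96 at day 2 (adjusted p = 0.501) and 1.70 ± 0.37 at day 5 (SE, n = 2 per group, adjusted p = 0.00170). Without DMSO day 5 replicate 1 the day 5 adjusted p was 0.0843. DESeq2 gave no adjusted p for BARX1, EN1 or SOX13 in LAN-1 at day 5. Its unadjusted p was 0.00269 for BARX1, 0.0597 for EN1 and 0.00400 for SOX13.

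LMX1B was the mirror case, read in Kelly only. At 129376207 to 129463311 on chromosome 9, it held 0 and 1.23 CPM in Kelly with DMSO at day 2, none with DMSO at day 5, 3.04 and 1.90 with GSK126 at day 2, and 10.6 and 5.31 with GSK126 at day 5. The GSK126 libraries lay above the DMSO libraries at both days. At day 5 the 20 counts with GSK126 were 7.85-fold higher than a floor of 3 counts over the DMSO group. The exact lower limit of the ratio was 5.81. With 30 counts in all, LMX1B was below the filter on low counts. In a fit of all 19130 genes with a read, its adjusted p at day 5 was 0.000488.

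GATA6 was likewise read in Kelly only. It held 8.94 and 6.77 CPM with DMSO at day 2, 8.18 and 6.05 with DMSO at day 5, 9.73 and 12.0 with GSK126 at day 2, and 16.3 and 16.7 with GSK126 at day 5. The GSK126 libraries lay above the DMSO libraries at both days. The change at day 5 was 1.23 on the log2 scale, with an adjusted p of 0.0584, which became 0.0386 in a fit of Kelly alone and 0.0360 with an offset for GC content.

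**Figure D3:**
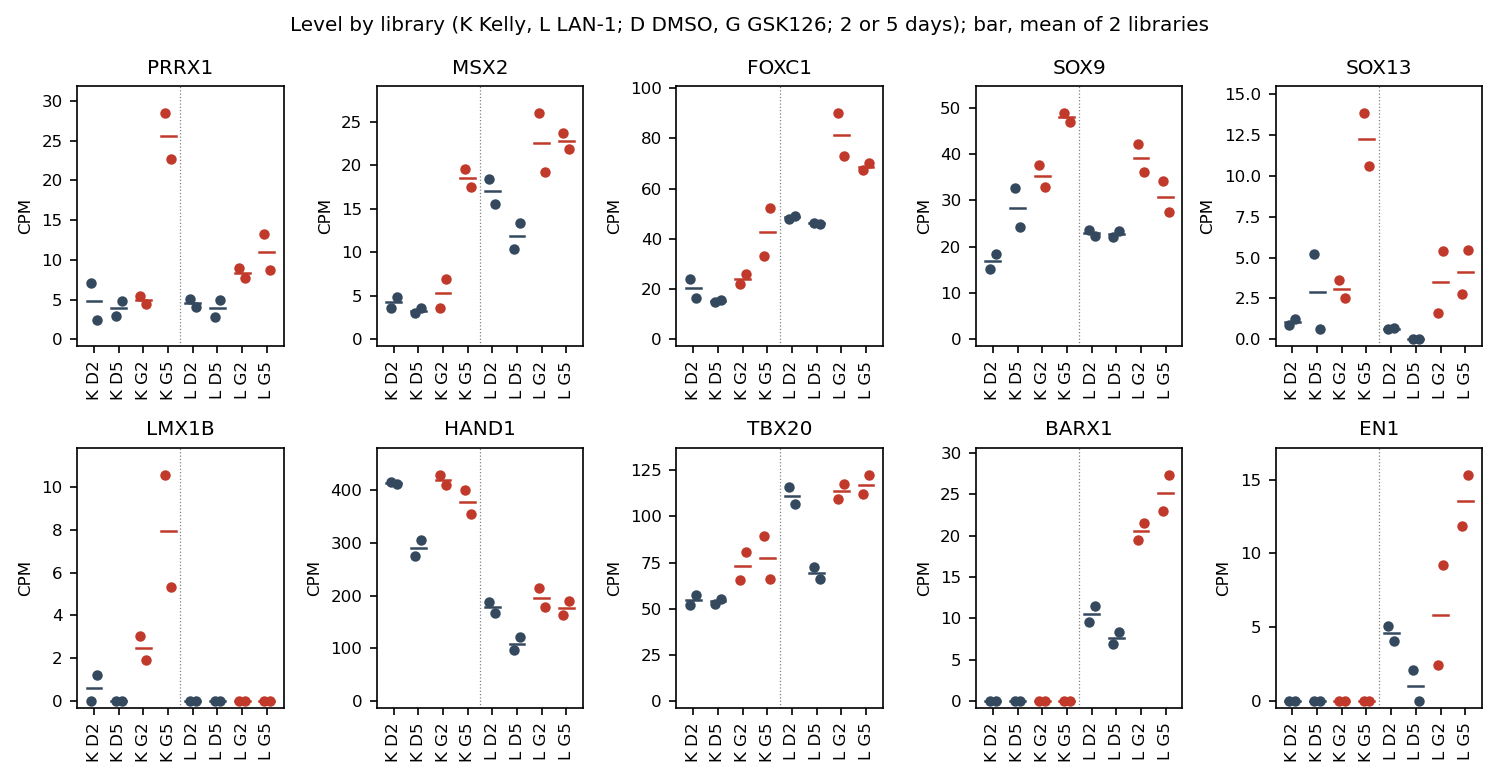
Level in CPM (vertical axes, each with its own scale) of 10 genes in each of the 16 libraries, by line (K, Kelly; L, LAN-1), treatment (D, DMSO; G, GSK126, in red) and day (2 or 5). Points are libraries and bars the means of 2. PRRX1 and MSX2 in Kelly stand at 22.7 to 28.5 and 17.4 to 19.5 with GSK126 at day 5, above the other Kelly libraries, and BARX1 and EN1 are at 0 in Kelly throughout.

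HAND1 in both lines and TBX20 in LAN-1 also had lower levels at day 5 than at day 2 in DMSO. HAND1, a basic helix-loop-helix gene of heart and sympathetic neurons at 153854532 to 153857787 on chromosome 5, held 417 and 411 CPM in Kelly with DMSO at day 2, 275 and 305 with DMSO at day 5, 430 and 409 with GSK126 at day 2, and 401 and 355 with GSK126 at day 5. In the same groups of LAN-1 the levels were 188 and 166, 96.3 and 120, 213 and 178, and 163 and 190 CPM. In both lines the day 5 DMSO libraries were the lowest, below all others.

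In DMSO, HAND1 fell from day 2 to day 5 by 0.51 ± 0.10 in Kelly (adjusted p = 8.79e-04) and by 0.72 ± 0.13 in LAN-1 (adjusted p = 7.71e-05; log2, SE, n = 2 per group). GSK126 against DMSO at day 5 gave 0.38 ± 0.10 in Kelly (adjusted p = 0.00845) and 0.70 ± 0.13 in LAN-1 (adjusted p = 1.62e-04). The comparisons within a line share the day 5 DMSO libraries, so they are not independent of each other. Without Kelly DMSO day 5 replicate 1 the adjusted p was 0.192 for GSK126 and 0.166 for time, and without GSK126 day 5 replicate 1 it was 0.23 for GSK126, while DESeq2 gave 0.126 for GSK126. Without LAN-1 DMSO day 5 replicate 1 it was 0.0894 for GSK126 and 0.22 for time.

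TBX20, a T-box gene of heart and of motor neurons at 35242042 to 35293711 on chromosome 7, held 116 and 107 CPM in LAN-1 with DMSO at day 2, 72.7 and 66.1 with DMSO at day 5, 110 and 118 with GSK126 at day 2, and 112 and 123 with GSK126 at day 5. In Kelly it held 51.8 and 57.2, 52.8 and 55.0, 65.7 and 80.5, and 89.5 and 66.0 CPM in the same order. In LAN-1 the day 5 DMSO libraries stood below the 6 others, which overlapped. In Kelly the GSK126 libraries lay above the DMSO libraries at both days.

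TBX20 changed with GSK126 in LAN-1 at day 5 by 0.74 ± 0.16 (SE, n = 2 per group, adjusted p = 8.74e-04). In Kelly at day 5 the change was 0.52, with an adjusted p of 0.0512, or 0.0103 with an offset for GC content. In LAN-1 with DMSO it fell by 0.68 ± 0.15 from day 2 to day 5 (adjusted p = 0.00592). The fall was not called without DMSO day 2 replicate 1 (0.264) or DMSO day 5 replicate 1 (0.113) or 2 (0.217), nor by DESeq2 (adjusted p = 0.194).

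TBX3, a T-box repressor of limb and heart at 115108060 to 115121980 on chromosome 12, also fell in DMSO and was called in no GSK126 comparison. It held 394 and 411 CPM in Kelly with DMSO at day 2, 294 and 287 with DMSO at day 5, 374 and 390 with GSK126 at day 2, and 303 and 267 with GSK126 at day 5. The same groups of LAN-1 held 609 and 582, 391 and 446, 607 and 607, and 445 and 518 CPM. The day 5 libraries lay below the day 2 libraries in both lines, with either treatment.

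From day 2 to day 5 in DMSO, TBX3 fell by 0.47 ± 0.10 in Kelly (adjusted p = 0.00199) and by 0.51 ± 0.09 in LAN-1 (adjusted p = 7.33e-05; log2, SE, n = 2 per group). GSK126 against DMSO at day 5 gave -0.02 in Kelly (adjusted p = 0.952) and 0.20 in LAN-1 (adjusted p = 0.261). The fall in Kelly was not called without DMSO day 2 replicate 2 (0.0593) or DMSO day 5 replicate 1 (0.054) or 2 (0.0642), and the fall in LAN-1 without DMSO day 5 replicate 1 (adjusted p = 0.136).

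HAND1 and TBX3 in Kelly, and HAND1, TBX3 and TBX20 in LAN-1, were all of the 28 tested genes that were called between days in DMSO. Of all genes, 0.438% were called in each line, 0.202% lower and 0.236% higher at day 5 in Kelly and 0.32% lower and 0.118% higher in LAN-1. None of the 28 was called higher by edgeR, with 2 in Kelly and 0 in LAN-1 higher at an unadjusted p under 0.05.

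**Figure D4:**
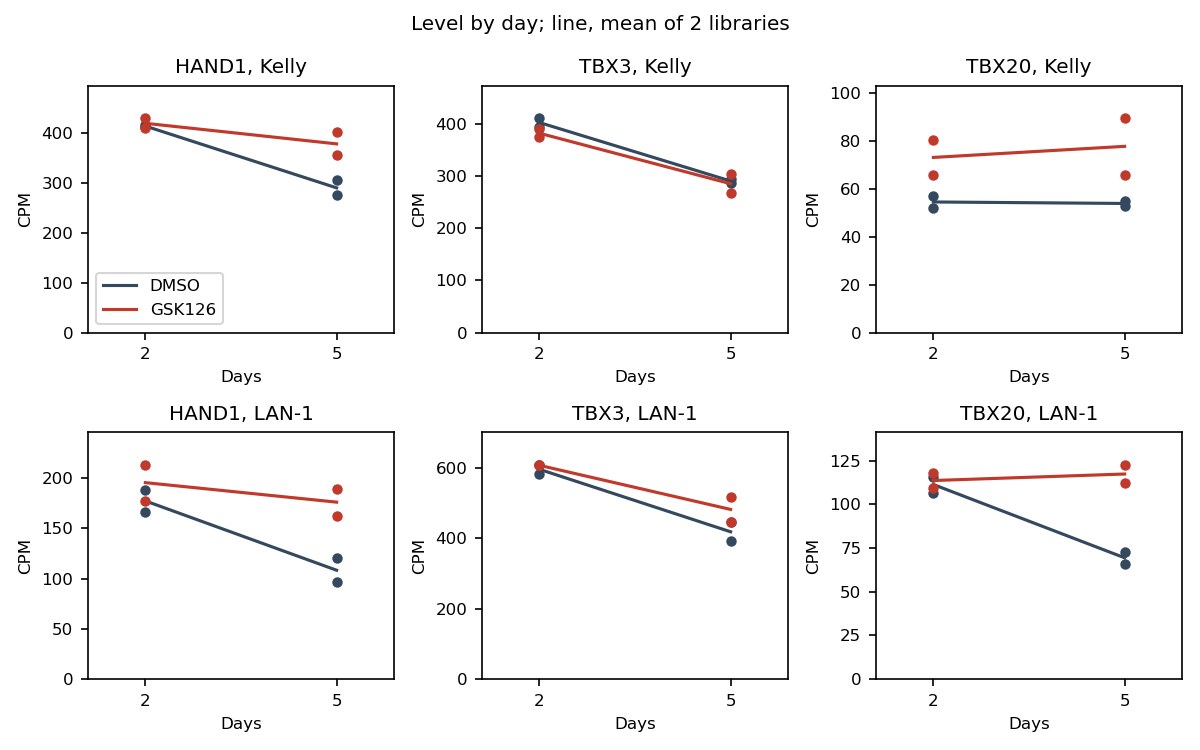
Level in CPM (vertical axes) of HAND1, TBX3 and TBX20 at 2 and 5 days (horizontal axes) with DMSO (dark) or GSK126 (red), Kelly above and LAN-1 below. Points are libraries and lines join the means of 2. The DMSO lines of HAND1 and TBX3 fall in both lines of cells, and at day 5 HAND1 stands higher with GSK126 in both (401 and 355 against 275 and 305 CPM in Kelly).

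Whether the effect of GSK126 itself differed between the lines was tested by an interaction. None of the 28 genes was called by edgeR at day 2 or at day 5, nor by DESeq2, which gave an adjusted p to 28 of them at day 2 and 7 at day 5, where by edgeR 0.00843% and 1.85% of all genes were (at day 5, 0.919% with a higher and 0.936% with a lower effect in LAN-1). At an unadjusted p under 0.05 there were 1 and 4. So PRRX1, MSX2 and SOX9, called in Kelly and not in LAN-1, and TBX20, called in LAN-1 and not in Kelly, are not shown to differ between the lines in their response. The differences at day 5, LAN-1 minus Kelly on the log2 scale, were -1.08 ± 0.74 for PRRX1 (adjusted p = 0.565), -0.31 ± 0.34 for SOX9 (adjusted p = 0.756), 0.22 ± 0.23 for TBX20 (adjusted p = 0.737) and 0.32 ± 0.17 for HAND1 (adjusted p = 0.41). EN1, BARX1, ZIC1, LMX1B and GATA6 had no read in 1 line. At this depth a response there could not be seen below 3 counts per group. Of these, EN1, BARX1, ZIC1 and GATA6 are among the 28, and for them the interaction could not give a call. Their SE at day 5 by edgeR were 7123, 3818, 28.6 and 2020, so the lack of a call says nothing about their response.

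**Figure D5:**
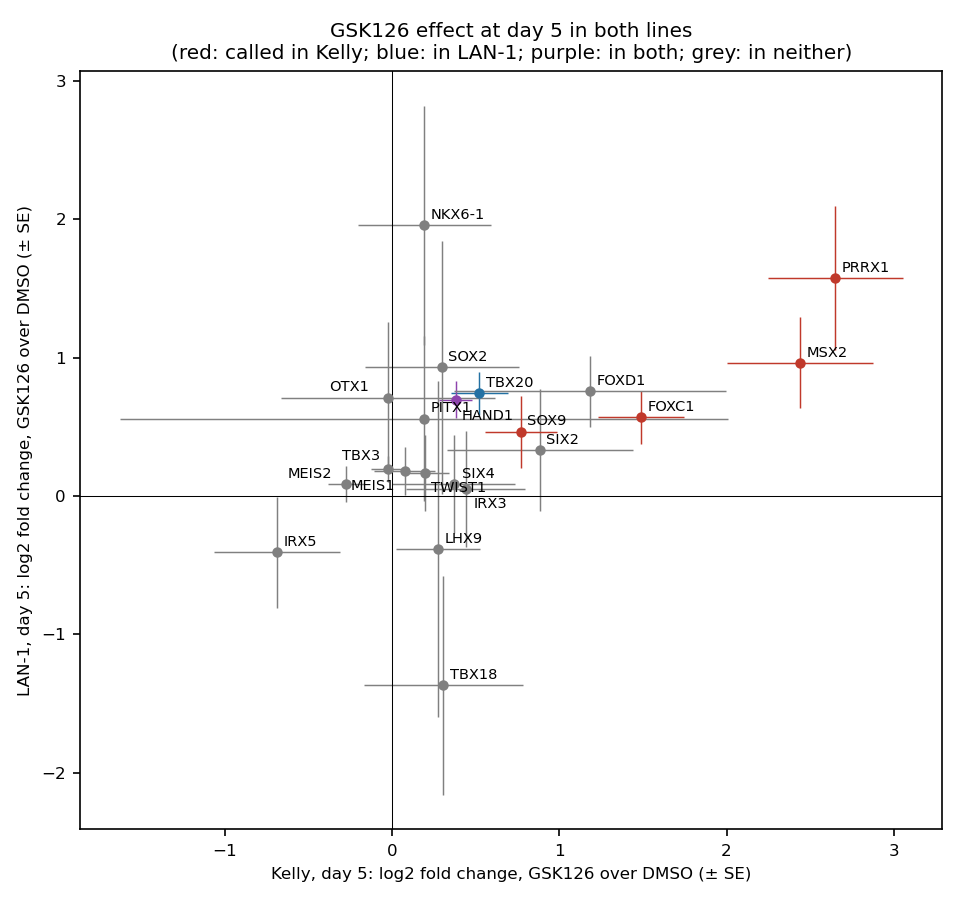
Log2 change with GSK126 at day 5 in Kelly (horizontal axis) and in LAN-1 (vertical axis) for 21 tested genes, with bars of 1 SE in each direction. Plotted are genes with at least 1 read in each of the 4 day 5 groups, so some points rest on few reads (PITX1 held 1 count in each Kelly group). SOX13, called in both lines, is not plotted, as it had no read in LAN-1 with DMSO at day 5. PRRX1 and MSX2 lie farthest to the right (2.65 and 2.44), HAND1 is the 1 gene plotted that was called in both lines, and the 2 genes with changes below 0 in LAN-1 of largest size, TBX18 and IRX5, have wide bars.

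The remaining tested genes passed no GSK126 comparison. IRX5, of the Iroquois homeobox family, held 13.4 and 14.5 CPM in Kelly with DMSO at day 5 and 8.95 and 8.34 with GSK126, without overlap (log2 change -0.69, adjusted p = 0.362). TBX18, a T-box gene of epicardium, held 4.85 and 4.18 CPM in LAN-1 with DMSO at day 5 and 0.696 and 3.29 with GSK126 (log2 change -1.37, adjusted p = 0.388). SIX4, a homeobox gene of muscle and sensory placodes, held 9.68 to 14.4 CPM in Kelly and 6.37 to 17.6 in LAN-1. NKX6-1 and SOX2, both of neural progenitors, held 6.34 to 16.1 and 5.07 to 11.4 CPM in Kelly and 0.676 to 6.26 and 0 to 4.87 in LAN-1.

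EZH2, whose activity GSK126 inhibits, and the related EZH1 were read in every group. EZH2 held 243 ± 26.9 and 219 ± 18.6 CPM in Kelly with DMSO at day 2 and 5, and 220 ± 12.1 and 179 ± 2.25 with GSK126 (SD, n = 2). The LAN-1 levels, in the same order, were 141 ± 9.17, 131 ± 5.56, 112 ± 2.03 and 104 ± 6.24 CPM. The log2 change at day 5 was -0.28 in Kelly (adjusted p = 0.149) and -0.31 in LAN-1 (adjusted p = 0.211). EZH1 changed by -0.10 in Kelly (adjusted p = 0.86) and -0.83 in LAN-1 (adjusted p = 0.107).

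Among 14 genes of PRC2 and the H3K27 demethylases, all tested, 1 rose and none fell over the 4 GSK126 comparisons. It was KDM6B, a demethylase of H3K27, in LAN-1 at day 5 (0.55 ± 0.12 SE, adjusted p = 0.00159). Of 20 PRC1 genes, 19 were tested, and BCOR, a subunit of a variant PRC1, rose in LAN-1 at day 5 (0.47 ± 0.11, adjusted p = 0.00580), with no other call.

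A list of 89 related developmental regulators outside the 51 gives a comparison. Of these, 32 were tested. At day 5, 5 rose and 3 fell in Kelly, and 2 rose and none fell in LAN-1, while 1 rose in Kelly at day 2 and none was called in LAN-1 at day 2. Among those that fell in Kelly were HAND2 (-0.67 ± 0.09, adjusted p = 7.79e-10) and TFAP2B (-0.65 ± 0.11, adjusted p = 1.74e-06), both regulators of sympathetic identity. SOX4, a SOX gene of neural progenitors, rose in Kelly (0.68 ± 0.11, adjusted p = 1.81e-06), and in LAN-1 PHOX2A (0.56, adjusted p = 0.00479) and SIX3 (0.83, adjusted p = 0.0217) rose. HAND1 rose in Kelly by 0.38 where its relative HAND2 fell.

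Markers of cell state moved in Kelly beside the rise of PRRX1, MSX2 and FOXC1. The summed level of 12 adrenergic markers was 7642 to 7791 CPM with DMSO at day 5 and 5300 to 5521 with GSK126, and 7 of the 12 fell. The summed level of 10 mesenchymal markers was 374 to 386 and 764 to 770 CPM, and 5 of the 8 tested rose (COL1A1, COL3A1, FN1, VIM and YAP1). In LAN-1 at day 5 the adrenergic sum was 3081 to 3200 with DMSO and 2976 to 3376 with GSK126, with 2 of 12 genes higher (PHOX2A and CHGA) and none lower. The mesenchymal sum in LAN-1 was 1146 to 1284 and 1402 to 1537, with 2 of 8 tested genes higher. In Kelly at day 5 the sum of 7 Schwann and glial markers was 4.46 to 4.84 CPM with DMSO and 10.6 to 15.9 with GSK126, and that of 5 endothelial markers 2.23 to 3.02 and 8.34 to 17.1, with SOX10 at 7 counts and PECAM1 at 1 count over all 16 libraries. The part of these markers in the changes of the 51 genes was not tested.

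Strand and overlap can bear on some of these counts. By the GENCODE 44 annotation, 16 of the 51 genes share exon sequence with another gene, mostly an antisense transcript, among them TBX3, MEIS1, MEIS2, TWIST1, GATA6, FOXD1 and ZIC1. The 9 genes that rose with GSK126 and LMX1B are not among the 16.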

How the data were processed

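RNA was measured in 16 libraries. The submitters' processing notes name TopHat2, featureCounts and FastQC, without versions, and the build GRCh37 (hg19). The deposited table holds counts, whole reads per gene symbol and library, with no normalization per its values. Annotation, strand setting and handling of multiply mapped reads are not given in the sources used here. In total the table has 25728 symbols, 6598 of them without a read, and 28 turned into dates. Samples were grouped by cell line, treatment and time in the labels.

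The tests used edgeR 4.0.16 (R 4.3.3): filterByExpr at a minimum count of 10 (11863 genes), TMM scaling (factors 0.977 to 1.03) and a robust quasi-likelihood model with 1 mean for each of the 8 groups, leaving 8 residual degrees of freedom. The common coefficient of biological variation came to 5.31%. P-values were adjusted by Benjamini-Hochberg over all tested genes, and the threshold was 0.05. CPM were computed per 1e6 counts. The contrasts were GSK126 against DMSO per line and day, day 5 against day 2 in DMSO, the line difference in the GSK126 effect, and LAN-1 against Kelly in DMSO. The model was tested on simulated data. Where a group held 3 counts or fewer, a fold against a floor of 3 counts over the group, or a ratio with an exact 95% interval, is given in place of the fitted fold. A fold against the floor leaves out the counting error of the higher group.

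Alternatives were DESeq2 1.42.0, its size factors, no filter, a filter at 20 counts in 2 libraries, fits of 1 line, a replicate block, an offset for GC content, and leaving out each library. Values per library are given for every member called with GSK126, the 5 members with most reads in each line and the 4 with the smallest adjusted p between lines in each direction; genes outside these were named after their values were seen. Results for a few genes outside the 51 are not reported here. The members and lists were chosen with earlier results of these data known. Gene positions came from GENCODE 44 lifted to GRCh37, and promoters from RefSeq on GRCh38.p14.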

Additional observations from a re-analysis of the deposited data

Results flagged for a closer look

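PAX6, a paired-box gene of eye and brain, moved in opposite directions in the lines at day 2. In Kelly both GSK126 libraries (0.608 and 0.634 CPM) lay below both DMSO libraries (3.58 and 3.08), on 2 against 9 counts, a ratio of 0.189 (exact 95% counting interval 0.0199 to 0.915). In LAN-1 both GSK126 libraries (4.87 and 5.38) lay above both DMSO libraries (2.55 and 3.38), on 13 against 9 counts, a ratio of 1.74 (0.688 to 4.61). PAX6 was below the filter on low counts, so the difference was not tested with the other genes. In a fit without the filter, the difference between lines had an adjusted p of 1 (edgeR). PAX6 shares exon sequence with ELP4 and PAUPAR on the opposite strand.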

How the results depend on the processing

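DESeq2 called fewer of the 28 tested genes than edgeR. Its calls were 0 for Kelly, day 2 (edgeR 1), 3 for Kelly, day 5 (6), 0 for LAN-1, day 2 (1) and 2 for LAN-1, day 5 (5), where it gave no adjusted p to 23 of the 28, among them the 3 other genes that edgeR called. Over all genes it called 3, 163, 2 and 154 in these comparisons, against 21, 581, 18 and 434 by edgeR. A stricter filter left 3 calls in LAN-1 at day 5 and 13 of 20 between the lines, where fewer genes were tested. A fit of Kelly alone left 0 calls at day 2. An offset for GC content gave 1 call for the difference between lines at day 5 (0 without it) and 9 in Kelly at day 5, and over all genes moved the calls between days in DMSO from 52 to 105 (Kelly) and 52 to 79 (LAN-1), and those in LAN-1 at day 2 from 18 to 36; DESeq2 gave 15 and 22 between days, and 73 against 220 for the line difference at day 5. The cause of these shifts was not tested. Replicate 1 minus replicate 2 correlated across genes with transcript GC content at -0.488 in LAN-1 with GSK126 at day 5 and -0.465 in Kelly with DMSO at day 2, and between -0.191 and 0.334 in the other groups; the tested members had a median GC of 56.9%, against 47.6% over all tested genes.

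Leaving out 1 library at a time gave 0 to 1 calls for Kelly, day 2, 3 to 8 for Kelly, day 5, 0 to 1 for LAN-1, day 2, 2 to 5 for LAN-1, day 5, 0 to 2 and 0 to 3 between days in Kelly and LAN-1, 0 to 0 and 0 to 1 for the line difference at day 2 and day 5, and 19 to 21 between the lines. No call changed direction in any of these fits. With the replicate block the calls among members were 0 in Kelly at day 2 and the same number as without it in every other comparison (6, 1, 5, 2, 3, 0, 0 and 20). The labels number the replicates, but deviations of same-numbered libraries correlated between -0.167 and 0.233 over 28 pairs of groups (median -0.0157, 5 over 0.1), so the numbers were not taken to pair the samples. With a limit of 0 counts in place of 3, 16 genes were silent in all 4 groups of Kelly and 14 in LAN-1, against 24 and 17, and with a limit of 10, 29 and 24. With 2 libraries per group and near 1 CPM as the level of 3 counts, lower expression could not be told from none.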
